A study of Mus musculus with 14 samples.

Results

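EpH4 is an epithelial cell line from mouse mammary gland, and EpRas is its derivative carrying H-RasG12V. The comparison described here was that of EpRas cells with EpH4 cells kept without TGF-β, across all genes, and it used 4 of the 14 RNA-seq libraries of the study, 2 of each line. The members were the 8660 genes whose expression level reached 5 FPKM in at least 1 of these libraries, of 23284 genes measured. FPKM (fragments per kilobase of exon and per mapped fragments of the library) corrects for transcript length, so that levels of different genes can be compared. The cells were untreated for 48 h, EpH4 cells in medium with 10% serum and EpRas cells in medium with 4% serum. Serum and transformation therefore cannot be told apart in any value below. EpRas is 1 derivative line, and what H-RasG12V did cannot be told apart from any other difference between EpRas and the EpH4 cells measured here. The labels give 2 replicates for each line, which the study calls biological without saying how the cultures were kept apart, and p-values measure the spread between these libraries. Libraries transfected with siRNA were left out. Those treated with TGF-β were left out of the main fit and entered only the alternative fit with all 8 untransfected libraries.

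Ras proteins are small GTPases that pass signals from receptor tyrosine kinases to the RAF, MEK and ERK kinases and to PI3K. The exchange in H-RasG12V keeps the protein bound to GTP. Active ERK induces transcription factors of the AP-1, ETS and EGR families and also its own inhibitors, the DUSP phosphatases and the Sprouty proteins. Mammary epithelium has a luminal layer, which carries simple keratins and is sealed by tight junctions, and a basal layer on the basement membrane, which carries Krt5, Krt14 and p63. Loss of epithelial in favor of mesenchymal markers is called EMT (epithelial-mesenchymal transition).

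FPKM summed over all genes to between 547865 and 633763 per library, of which the top 10 genes took 7.98 to 11.4%. No read numbers are given, so relative depth was estimated from the most frequent ratio between 2 libraries among genes of low FPKM. By this estimate the deepest library (EpH4 replicate 2) had 2.23 times the reads of the shallowest (EpRas replicate 1). At 5 FPKM a gene had 37.5 reads (median) in the shallowest library and 83.4 in the deepest. These medians were taken over genes whose values were whole multiples of the value of 1 read. Differences between the lines were tested with limma on log2(FPKM + 1), and a gene was called at a Benjamini-Hochberg adjusted p under 0.05 over all 8660 genes. EpRas cells were higher for 600 genes and lower for 664, together 14.6% of the genes tested (6.93% higher, 7.67% lower). At an unadjusted p under 0.05 the share was 32% (16% higher, 15.9% lower). For all 1264 called genes both libraries of one line lay above both of the other, which was so for 61.2% of the genes tested. Of the called genes, 344 were higher and 382 lower by at least 1 on the log2(FPKM + 1) scale, and the median difference of all genes tested was -0.0068. All log2 differences below are EpRas minus EpH4 on this scale, which draws those of low genes towards 0. Leaving out 1 library left 200 higher and 219 lower genes without EpH4 replicate 1, 161 and 174 without EpH4 replicate 2, 141 and 159 without EpRas replicate 1, and 123 and 131 without EpRas replicate 2. Every one of the 1264 called genes had to keep its direction in each of these fits, since its libraries did not overlap between the lines. Far fewer kept their call in all of them, and these are described below as called whichever library was left out. In each of these fits 1 line is represented by a single library, which is assumed to vary like the 2 of the other line, so that they show how far a call rests on 1 library and are not independent support for it. Where a gene named below lost its call under another choice in processing that kept all 4 libraries, as the number added before the logarithm or the filter (a replicate block apart), the range of adjusted p over these choices is given in its paragraph. A gene seen in 1 line passed the filter through that line, so that counts within a list describe the genes that passed and not the whole list. In bulk RNA, fewer cells with a transcript and less of it per cell cannot be told apart.

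**Figure D1:**
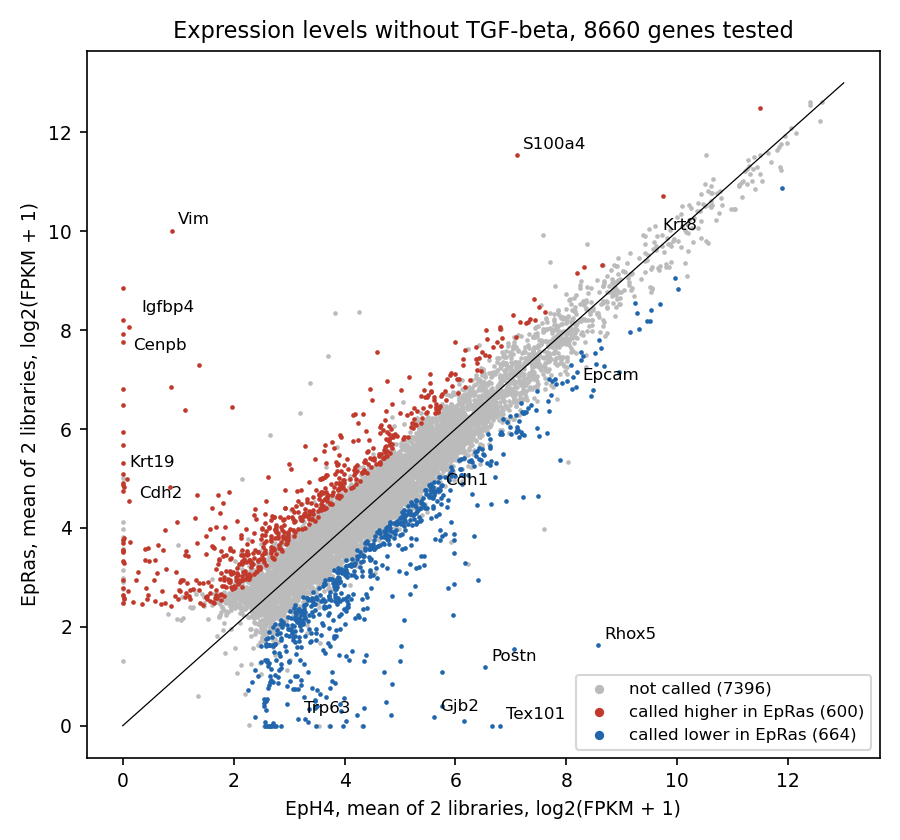
Mean log2(FPKM + 1) of the 2 EpRas libraries (vertical) against that of the 2 EpH4 libraries (horizontal) for the 8660 genes tested, with the 600 genes called higher in EpRas in red, the 664 called lower in blue and the others in gray. The line marks equal levels. Vim, Cenpb and Igfbp4 lie at the upper left, Rhox5 and Tex101 at the lower right, and Krt8 close to the line.

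The gene of the transforming protein was looked at first. The mouse Hras1 gene was at 101 and 103 FPKM in EpH4 cells and 126 and 85.9 FPKM in EpRas cells (log2 difference 0.03, standard error 0.23, adjusted p = 0.936). The EpRas libraries lay on both sides of the EpH4 libraries, so that this row of the table does not separate the lines, and the sources used here do not state whether it counts transcripts of the introduced H-Ras.

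Many genes that set or mark epithelial identity were lower in EpRas cells. Of 21 epithelial regulators tested, 13 fell (61.9%) and 1 rose (4.76%), beside 7.67% and 6.93% of all genes tested. The median log2 difference was -0.99. Grhl2, a transcription factor of epithelial junction genes, was at 13.6 and 11.5 FPKM in EpH4 cells and 4.24 and 5.45 FPKM in EpRas cells. Esrp1, a regulator of epithelial splicing, was at 43.8 and 62.6 FPKM in EpH4 cells and 24.5 and 18.9 FPKM in EpRas cells. Both libraries of EpRas cells lay below those of EpH4 cells for either gene (log2 difference -1.22, adjusted p = 0.0151 for Grhl2, and -1.25, adjusted p = 0.027 for Esrp1). Cdh1, which encodes E-cadherin, fell by 0.96 on the log2 scale (adjusted p = 0.0209) and was still at 24.4 and 27.4 FPKM in the EpRas libraries. The larger decreases were elsewhere in the list. Trp63 (chromosome 16, 25683763 to 25892088) encodes p63, the master regulator of basal epithelial cells, and was at 7.37 and 8.6 FPKM in EpH4 cells and 0 and 0.197 FPKM in EpRas cells (log2 difference -3.03, standard error 0.18, adjusted p = 0.000594). Ap1m2 encodes an adaptor that sorts proteins to the basolateral membrane of epithelial cells, and fell from 63 and 61 FPKM to 17 and 11.1 FPKM (log2 difference -2.10, adjusted p = 0.00504). St14, an epithelial surface protease, was 2.56 times lower by the ratio of the mean FPKM (adjusted p = 0.00845), and Epcam, an epithelial adhesion molecule, was 2.44 times lower (adjusted p = 0.0284). The exception was Klf4, which encodes a transcription factor of differentiated epithelia and rose from 15.1 and 13.5 FPKM to 28.1 and 26.3 FPKM (adjusted p = 0.0249). Trp63 and Ap1m2 were called whichever library was left out, and 3 to 4 of the list were called with 1 library left out. Grhl2, Esrp1, Cdh1 and Klf4 lost their calls without each library. Epcam (adjusted p 0.0261 to 0.0555) and Esrp1 (adjusted p 0.00865 to 0.0509) lost their calls under at least 1 alternative in processing.

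The keratins did not move together. Krt8 and Krt18 form the keratin filaments of simple epithelia and were among the most highly expressed genes of either line. Krt8 was at 703 and 885 FPKM in EpH4 cells and 1114 and 814 FPKM in EpRas cells (log2 difference 0.27, standard error 0.23, adjusted p = 0.459), and Krt18 at 922 and 1132 FPKM in EpH4 cells and 1449.6 and 1081 FPKM in EpRas cells (log2 difference 0.29, standard error 0.22, adjusted p = 0.407), and the lines overlapped for both. Krt14, the keratin of basal cells, was at 327 and 386 FPKM in EpH4 cells and 103 and 115 FPKM in EpRas cells, a decrease of 3.26 times (log2 difference -1.69, standard error 0.18, adjusted p = 0.00423). Krt17, a keratin of stratified and stressed epithelium, was at 17 and 18.6 FPKM in EpH4 cells and 0 and 0.344 FPKM in EpRas cells (log2 difference -4.02, standard error 0.20, adjusted p = 0.000385). Krt19 (chromosome 11, 100140810 to 100145926), a keratin of simple and luminal epithelium, went the other way and was listed at 0 in both EpH4 libraries and at 37.4 and 29.5 FPKM in the EpRas libraries (log2 difference 5.10, standard error 0.19, adjusted p = 0.000121). In all, 1 of 7 keratins tested rose (14.3%) and 2 fell (28.6%), beside 6.93% and 7.67% of all genes tested. Krt17 and Krt19 kept their calls whichever library was left out, and Krt14 lost its call without EpRas replicate 1 (adjusted p = 0.0521).

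In the basal and myoepithelial list, 3 of 7 genes tested fell (Krt17, Trp63 and Krt14) and 1 rose. These were 42.9% and 14.3%, beside 7.67% and 6.93% of all genes tested. The one that rose was Procr, the protein C receptor, at 21.8 and 30.6 FPKM in EpH4 cells and 80.5 and 81.9 FPKM in EpRas cells (log2 difference 1.61, standard error 0.21, adjusted p = 0.0084). Of 27 genes of the luminal cell and of milk, 10 were listed at 0 in all 4 libraries, among them Elf5, the regulator of the alveolar lineage, and the milk protein genes Csn2 and Wap. Esr1, the estrogen receptor, was at 1.65 and 1.13 FPKM in EpH4 cells and 1.36 and 1.93 FPKM in EpRas cells and was not tested. Among the 10 luminal genes tested, 1 rose and 1 fell (10% each). Cd14 rose from 10.5 and 12 FPKM to 32.4 and 29.7 FPKM (adjusted p = 0.00692). Ly6a (Sca-1) fell from 186 and 175 FPKM to 64.7 and 49.9 FPKM (adjusted p = 0.00603). With 1 library left out, 0 to 2 of these 2 luminal calls held, none of them without EpRas replicate 2 (adjusted p = 0.0644 for Cd14 and 0.0558 for Ly6a).

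Mesenchymal markers divided into a few very large increases and several decreases. Vim (chromosome 2, 13574311 to 13582826), the gene of the intermediate filament vimentin, was at 0.939 and 0.769 FPKM in EpH4 cells and 924 and 1156 FPKM in EpRas cells (log2 difference 9.13, standard error 0.19, adjusted p = 2.69e-05). Cdh2, the gene of N-cadherin, was at 0.0766 and 0.0283 FPKM in EpH4 cells and 35.8 and 26.2 FPKM in EpRas cells (log2 difference 4.91, standard error 0.20, adjusted p = 0.0002). S100a4, a calcium-binding protein of motile cells, was at 138 and 135 FPKM in EpH4 cells and 2970.4 and 2974 FPKM in EpRas cells, a ratio of 21.7 between the means (log2 difference 4.43, standard error 0.16, adjusted p = 0.000117). Hmga2, a chromatin protein of embryonic and transformed cells, rose from 15.2 and 8.62 FPKM to 42.5 and 58.4 FPKM (adjusted p = 0.013). Both EpRas libraries lay far above both EpH4 libraries for the first 3 of these genes, and the EpH4 libraries held almost no Vim or Cdh2. Of the transcription factors linked to EMT, Zeb1 was at 0.0304 and 0 FPKM in EpH4 cells and 2.04 and 2.01 FPKM in EpRas cells, below the level for a test. Twist2 was at 3.22 and 7.01 FPKM in EpH4 cells and 0.503 and 0.271 FPKM in EpRas cells, Snai3 at 4.79 and 5.34 FPKM in EpH4 cells and 0.604 and 0.325 FPKM in EpRas cells and Foxc1 at 25 and 19.2 FPKM in EpH4 cells and 11.6 and 12.1 FPKM in EpRas cells. The adjusted p was 0.0146 for Twist2, 0.00219 for Snai3 and 0.0415 for Foxc1, which were named because they were called lower. Levels of other factors linked to EMT are not reported here, and 12 of the 25 listed mesenchymal regulators were below the level for a test. Altogether 4 of the 13 mesenchymal regulators tested rose and 4 fell (30.8% each), with a median of 0.32. The shares over all genes tested were 6.93% and 7.67%. Vim, Cdh2, S100a4 and Snai3 were called whichever library was left out, and Hmga2 kept its call in 1 of the 4 fits with a library left out (adjusted p = 0.101 without EpRas replicate 2). Foxc1 (adjusted p 0.0309 to 0.0544) lost its call under at least 1 alternative in processing.

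Matrix genes typical of mesenchymal cells that differed were lower in EpRas cells, except Mgp. Postn, the gene of periostin, was at 89.5 and 92.9 FPKM in EpH4 cells and 1.15 and 1.4 FPKM in EpRas cells (log2 difference -5.34, standard error 0.16, adjusted p = 8.09e-05). Col1a1, a chain of type I collagen, was at 18.7 and 21.2 FPKM in EpH4 cells and 1.8 and 1.57 FPKM in EpRas cells (log2 difference -2.96, standard error 0.17, adjusted p = 0.000533). The other genes that fell were Timp3, an inhibitor of matrix proteases, Cyr61 and Thbs1, both matricellular proteins, and Col12a1, with adjusted p values of 0.00542, 0.0104, 0.0134 and 0.0234. Mgp, which encodes matrix Gla protein, an inhibitor of calcification, rose from 6.85 and 11.1 FPKM to 54.8 and 44.2 FPKM (adjusted p = 0.00481). Sparc, a widely expressed matrix protein, was at 334 and 351 FPKM in EpH4 cells and 286 and 384 FPKM in EpRas cells and did not differ beyond the spread (log2 difference -0.05, standard error 0.20, adjusted p = 0.896). Thus 6 of 14 matrix genes fell (42.9%) and 1 rose (7.14%), beside 7.67% and 6.93% of all genes tested. The vimentin and N-cadherin transcripts of EpRas cells went along with less Col1a1 and Postn. Col1a1 and Postn were called whichever library was left out, and 2 to 5 of the list with 1 left out. Col12a1 (adjusted p 0.00546 to 0.0569) lost its call under at least 1 alternative in processing.

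**Figure D2:**
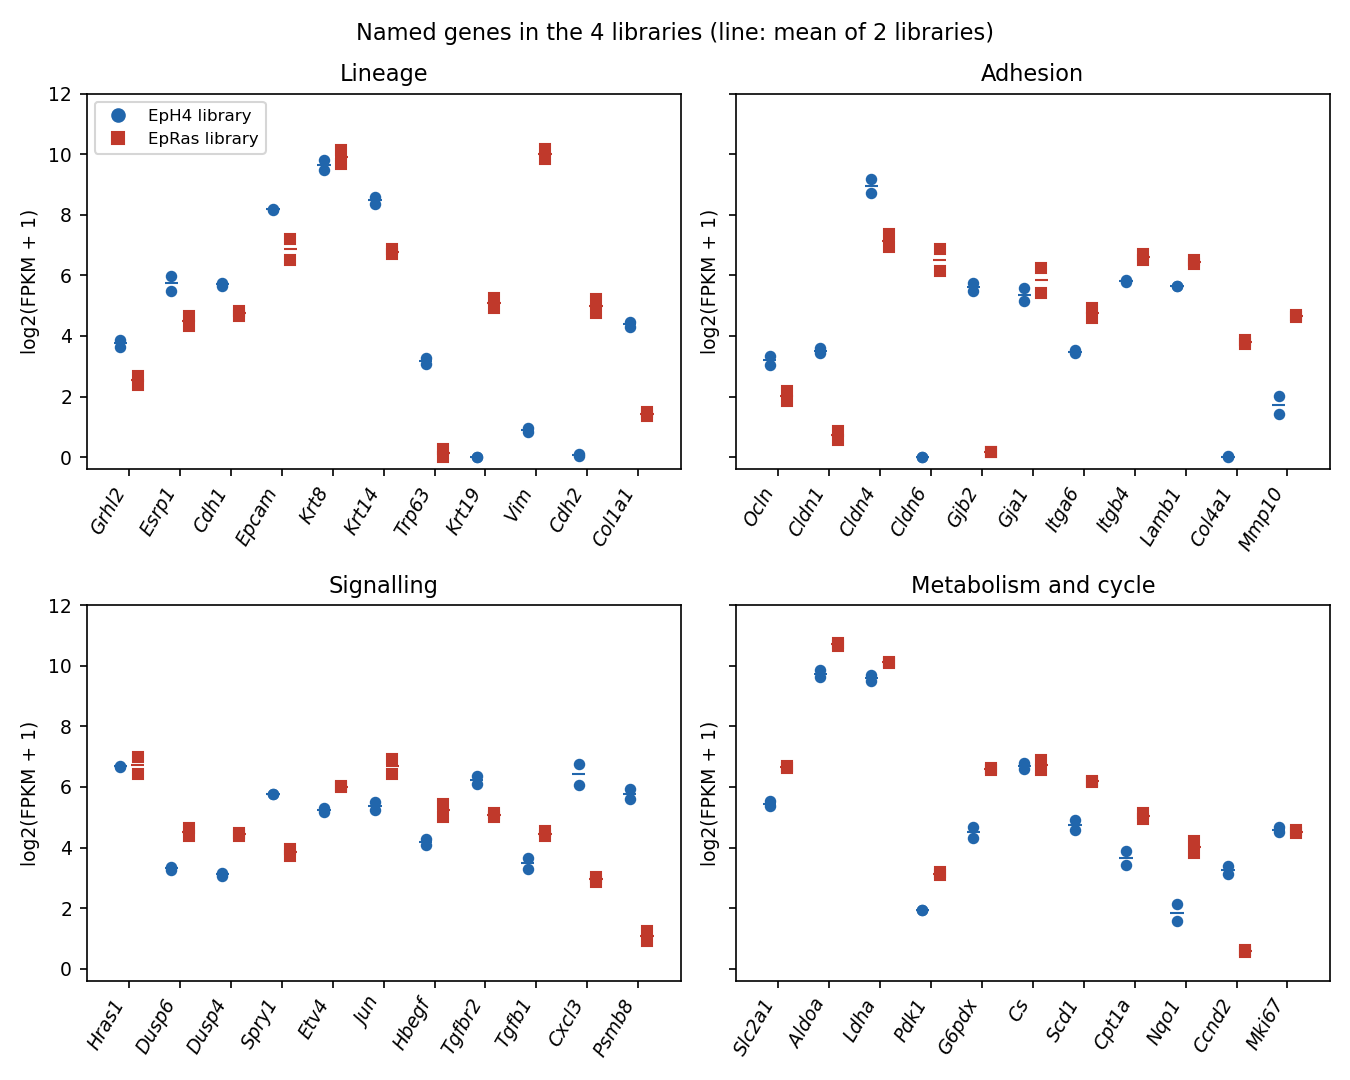
Log2(FPKM + 1) of named genes in each of the 4 libraries, in 4 panels by theme (lineage, adhesion, signalling, metabolism and cycle). Circles are EpH4 libraries, squares are EpRas libraries and short lines are the means of 2. Vim, Krt19, Cldn6 and Col4a1 are near 0 only in EpH4 cells, and Trp63 and Gjb2 only in EpRas cells, whereas Krt8, Hras1, Gja1, Cs and Mki67 overlap.

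A small set of genes usually seen in the testis or placenta was expressed in EpH4 cells and almost not in EpRas cells. Rhox5 (chromosome X, 37754608 to 37808878), a homeobox gene of the reproductive tract, was at 332 and 431 FPKM in EpH4 cells and 2.8 and 1.51 FPKM in EpRas cells (log2 difference -6.94, standard error 0.26, adjusted p = 0.000142). Tex101, a surface protein of male germ cells, was at 114 and 106 FPKM in EpH4 cells and was listed at 0 in both EpRas libraries. Syce2, a part of the synaptonemal complex of meiosis, was at 62.2 and 79.98 FPKM in EpH4 cells and 0 and 0.146 FPKM in EpRas cells. The remaining germline genes of the list did not reach 1 FPKM in any library, and 26 of 32 were listed at 0 in all 4, among them Dazl. The 3 genes passed the filter through EpH4 cells alone, and all 3 calls held whichever library was left out.

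In the adherens junction, 4 of 15 genes tested fell (26.7%) and 3 rose (20%), beside 7.67% and 6.93% of all genes tested. Pvrl4, Pvrl2 and Pvrl1 encode nectins, adhesion molecules that act beside the cadherins, and fell together with Cdh1. Pvrl4 was at 9.67 and 8.95 FPKM in EpH4 cells and 0.26 and 0.279 FPKM in EpRas cells (log2 difference -3.02, standard error 0.16, adjusted p = 0.000435). Pvrl2 was at 77.7 and 81.4 FPKM in EpH4 cells and 38.9 and 35 FPKM in EpRas cells (adjusted p = 0.0134) and Pvrl1 at 7.99 and 7.96 FPKM in EpH4 cells and 3.85 and 4.11 FPKM in EpRas cells (adjusted p = 0.0246). Beside Cdh2, Cdh13, a cadherin anchored to the membrane by a lipid, rose from 8.8 and 7.76 FPKM to 24.1 and 28.1 FPKM (adjusted p = 0.00549). Vcl, which encodes vinculin and links junctions to actin, rose from 15.6 and 13.8 FPKM to 26.1 and 28.6 FPKM (adjusted p = 0.0289). The sum of the expression levels of the list was 661 and 708 FPKM in EpH4 cells and 627 and 615 FPKM in EpRas cells. Desmosome genes gave a single call among 8 (12.5%), which was lower, beside 7.67% of all genes tested. It was Evpl (envoplakin), at 11.7 and 14.6 FPKM in EpH4 cells and 2.89 and 2.04 FPKM in EpRas cells (log2 difference -2.04, standard error 0.21, adjusted p = 0.00372). Dsp, which encodes desmoplakin, was at 16.8 and 18.1 FPKM in EpH4 cells and 12.8 and 13 FPKM in EpRas cells (log2 difference -0.41, standard error 0.16, adjusted p = 0.146), and Pkp1, a plakophilin, at 80.9 and 62.6 FPKM in EpH4 cells and 45.4 and 39.98 FPKM in EpRas cells (log2 difference -0.73, standard error 0.20, adjusted p = 0.0637), both below EpH4 cells without passing the test. Cdh2, Pvrl4 and Evpl kept their calls whichever library was left out, and the others of these junctions lost theirs without at least 1.

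Tight and gap junction genes held the largest decrease among the adhesion genes tested. Of 25 tested, 10 fell (40%) and 2 rose (8%), beside 7.67% and 6.93% of all genes tested. Gjb2 (chromosome 14, 57098602 to 57104702) encodes connexin 26, a gap junction channel, and was at 43.5 and 52.9 FPKM in EpH4 cells and 0.127 and 0.136 FPKM in EpRas cells (log2 difference -5.44, standard error 0.18, adjusted p = 8.94e-05). Cldn1, a claudin that seals the paracellular space, was at 9.8 and 11 FPKM in EpH4 cells and 0.828 and 0.494 FPKM in EpRas cells (log2 difference -2.79, standard error 0.18, adjusted p = 0.000801). Cldn4 and Cldn7, claudins of glandular epithelia, were 3.5 and 3.35 times lower by the means, from 578 and 418 FPKM to 165 and 120.1 FPKM for Cldn4 (adjusted p = 0.0103) and from 191 and 208 FPKM to 57.3 and 61.8 FPKM for Cldn7 (adjusted p = 0.00286). Ocln, the gene of occludin, was at 9.22 and 7.18 FPKM in EpH4 cells and 2.62 and 3.57 FPKM in EpRas cells (adjusted p = 0.022). Its relative Marveld2 (tricellulin), which seals the corners where 3 cells meet, fell from 13.9 and 11.9 FPKM to 3.76 and 3.07 FPKM (adjusted p = 0.00498). Cldn3, Cgn (cingulin), Lsr and Pard6b made up the rest of the decreases. Cldn6 (chromosome 17, 23679348 to 23682446), a claudin of embryonic epithelia, was the opposite case and was listed at 0 in both EpH4 libraries and at 115 and 68.9 FPKM in the EpRas libraries (log2 difference 6.49, standard error 0.27, adjusted p = 0.0002). Cldn9, its neighbor on chromosome 17 (from 23682584 to 23684026), is not in the list and was named as 1 of the 12 largest rises of all genes, at 2.19 and 1.11 FPKM in EpH4 cells and 198 and 123 FPKM in EpRas cells (log2 difference 5.92, standard error 0.31, adjusted p = 0.000435). Gjc1 (connexin 45) rose from 5.26 and 6.15 FPKM to 15.3 and 13.9 FPKM (adjusted p = 0.0109), and Gja1 (connexin 43) was at 47 and 34.4 FPKM in EpH4 cells and 75.4 and 42 FPKM in EpRas cells with overlapping lines (log2 difference 0.48, standard error 0.32, adjusted p = 0.356). Of the list, Cldn1, Cldn6, Cldn7 and Gjb2 were called whichever library was left out. Without genes on chromosomes 2, 5, 6 and 13, described below, 5 of 19 fell and 2 rose. Cldn3 (adjusted p 0.0166 to 0.062), Lsr (adjusted p 0.0352 to 0.0585) and Pard6b (adjusted p 0.0215 to 0.0537) lost their calls under at least 1 alternative in processing.

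Genes of the contact with the basement membrane were higher in EpRas cells where they differed. Of 23 integrin, laminin, basement membrane collagen and hemidesmosome genes tested, 10 rose, with a median of 0.45, and the number at an unadjusted p under 0.05 was 12 higher and 0 lower, beside 16% and 15.9% of all genes tested. Col4a1 and Col4a2 encode the 2 chains of the common type IV collagen and lie side by side on chromosome 8. Col4a1 (chromosome 8, 11198423 to 11312889) was at 0.0265 and 0 FPKM in EpH4 cells and 13.5 and 12.4 FPKM in EpRas cells (log2 difference 3.78, standard error 0.16, adjusted p = 0.000207). Col4a2 was listed at 0 in both EpH4 libraries and was at 12.8 and 8.91 FPKM in the EpRas libraries (adjusted p = 0.000587). Itga6, which pairs with Itgb4 to bind laminin, was at 10.6 and 9.75 FPKM in EpH4 cells and 23 and 29.6 FPKM in EpRas cells (log2 difference 1.28, standard error 0.19, adjusted p = 0.0132). Itgb4 itself was at 57 and 54.3 FPKM in EpH4 cells and 103 and 89.3 FPKM in EpRas cells (adjusted p = 0.0373). Itga5, the chain of the fibronectin receptor, rose from 20.2 and 20.9 FPKM to 45 and 46.8 FPKM (adjusted p = 0.011), and Col7a1, which anchors the basement membrane, from 2.4 and 2.86 FPKM to 8.82 and 6.81 FPKM (adjusted p = 0.0134). Lama3, a chain of laminin 332, was at 11.7 and 12.7 FPKM in EpH4 cells and 12.3 and 10.5 FPKM in EpRas cells (log2 difference -0.09, standard error 0.17, adjusted p = 0.748), and the lines overlapped. The sum over the list was 1134 and 1126 FPKM in EpH4 cells and 1599 and 1502 FPKM in EpRas cells. Only Col4a1 and Col4a2 kept their calls whichever library was left out.

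Among proteases of the matrix and their inhibitors, 2 of 16 rose and 2 fell (12.5% each), beside 6.93% and 7.67% of all genes tested. Mmp10 (stromelysin 2) was at 1.69 and 3.07 FPKM in EpH4 cells and 23.8 and 24.8 FPKM in EpRas cells (log2 difference 2.94, standard error 0.24, adjusted p = 0.00169). Plaur, the receptor of urokinase, was at 74.4 and 88.6 FPKM in EpH4 cells and 182 and 158 FPKM in EpRas cells (log2 difference 1.05, standard error 0.18, adjusted p = 0.0205). Its ligand Plau (urokinase) was at 52.3 and 54.6 FPKM in EpH4 cells and 84.7 and 70.02 FPKM in EpRas cells, higher in both EpRas libraries without passing the test (log2 difference 0.52, standard error 0.18, adjusted p = 0.11). Timp3 fell from 73.8 and 81.7 FPKM to 27.4 and 22.3 FPKM, and Adamts5 (aggrecanase 2) from 16.8 and 18.5 FPKM to 10.01 and 9.62 FPKM (adjusted p = 0.0318). Mmp9 (gelatinase B) was at 40.6 and 43.3 FPKM in EpH4 cells and 32.2 and 24.2 FPKM in EpRas cells and was not called (log2 difference -0.57, standard error 0.20, adjusted p = 0.114). Mmp10 kept its call whichever library was left out, and Plaur lost it without each one.

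Transcripts that ERK signaling induces were partly higher in EpRas cells, with 7 of 25 up (28%), 1 down (4%) and a median of 0.33. Of all genes tested, 6.93% were up and 7.67% down. Dusp6, a cytoplasmic phosphatase of ERK, was at 8.66 and 9.24 FPKM in EpH4 cells and 19.9 and 24 FPKM in EpRas cells (log2 difference 1.20, standard error 0.18, adjusted p = 0.0122). Dusp4, a nuclear phosphatase of MAP kinases, was at 7.96 and 7.39 FPKM in EpH4 cells and 19.97 and 21.5 FPKM in EpRas cells (log2 difference 1.32, standard error 0.16, adjusted p = 0.00694). Etv4 and Etv5, ETS family transcription factors, were at 34.9 and 38.5 FPKM in EpH4 cells and 64.8 and 62.2 FPKM in EpRas cells for Etv4 (adjusted p = 0.0331) and at 5.46 and 6.21 FPKM in EpH4 cells and 10.9 and 9.5 FPKM in EpRas cells for Etv5 (adjusted p = 0.0477). The lines did not overlap for either, with ratios of 1.73 and 1.75 between the means. Jun, a subunit of AP-1, rose from 36.7 and 44.8 FPKM to 119 and 85.8 FPKM (adjusted p = 0.0204), and Hbegf, a ligand of the EGF receptor, from 18.6 and 15.9 FPKM to 42 and 31.5 FPKM (adjusted p = 0.0295). Spry1, an inhibitor of the pathway, went against the others, at 53 and 53.1 FPKM in EpH4 cells and 14.5 and 12.3 FPKM in EpRas cells (log2 difference -1.91, standard error 0.17, adjusted p = 0.00227), while its relative Spry4 was at 0.155 and 0.0286 FPKM in EpH4 cells and 1.08 and 0.616 FPKM in EpRas cells and below the level for a test. Other genes of the list overlapped between the lines or did not pass, such as Ccnd1, the gene of cyclin D1, at 510.2 and 496 FPKM in EpH4 cells and 514 and 369 FPKM in EpRas cells (log2 difference -0.21, standard error 0.21, adjusted p = 0.543). Of the 8 calls only that of Spry1 held whichever library was left out. Jun (adjusted p 0.0178 to 0.0724) and Etv5 (adjusted p 0.0178 to 0.0675) lost their calls under at least 1 alternative in processing.

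AP-1, the dimer of Jun and Fos proteins, binds the letters TGANTCA, which read the same on both strands apart from N. This motif was searched in the 250 bases before the RefSeq start (build GRCm38.p6) of the 6934 tested genes with such a sequence. It was in 46 of 478 genes called higher (9.62%), in 29 of 507 called lower (5.72%), and in 5.32% of all tested and 7.82% of all genes with a sequence. In the same bases 3 other motifs were searched on both strands. The letters CGGAAG, bound by ETS factors, were in 27.2% of the genes called higher, 21.1% of those called lower and 32.7% of all tested. The letters ACGTG, bound by hypoxia-inducible factors, were in 25.3% of the genes called higher, 23.1% of those called lower and 26.6% of all tested. The letters CAGGTG, an E-box bound by Snail and Zeb factors, were in 18.4% of the genes called higher, 24.1% of those called lower and 17.4% of all tested. Of all genes with a sequence, 15.3% held the ETS letters, 18.5% the ACGTG letters and 19.4% the E-box. These shares are descriptions, and a match is not a binding site. Of the 57 listed genes that rose and had a sequence, 6 held the AP-1 motif (10.5%), Mmp10, Procr, Srxn1, Plaur, Aldoa and Car9. The sequences of 3 of them, chosen after their values were seen because 2 are secreted or surface proteins of invasion and 1 holds the motif in 2 places, are given 5′ to 3′ on the strand of the gene, with the motif in capitals. They are Mmp10 at chr9:7502092-7502341 (plus strand), where the motif begins 63 bases before the start, Plaur at chr7:24462233-24462482 (plus strand, 69 bases) and Srxn1 at chr2:152105274-152105523 (plus strand, 102 and 45 bases).
Mmp10: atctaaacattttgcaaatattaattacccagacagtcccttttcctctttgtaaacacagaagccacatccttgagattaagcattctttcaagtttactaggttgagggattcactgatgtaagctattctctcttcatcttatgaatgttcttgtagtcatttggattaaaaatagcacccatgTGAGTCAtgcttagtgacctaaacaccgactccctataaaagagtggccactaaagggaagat
Plaur: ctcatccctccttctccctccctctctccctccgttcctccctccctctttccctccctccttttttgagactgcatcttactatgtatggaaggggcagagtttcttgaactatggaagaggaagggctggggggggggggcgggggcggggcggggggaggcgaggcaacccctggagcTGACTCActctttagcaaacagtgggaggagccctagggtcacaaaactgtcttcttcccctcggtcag
Srxn1: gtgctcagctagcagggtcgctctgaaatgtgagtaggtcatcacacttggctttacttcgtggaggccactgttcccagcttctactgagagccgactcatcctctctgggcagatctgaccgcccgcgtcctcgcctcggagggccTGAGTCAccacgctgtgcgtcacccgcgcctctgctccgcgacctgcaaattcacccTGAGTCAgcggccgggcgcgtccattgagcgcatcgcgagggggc

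Regulators and effectors of Ras moved in both directions, 5 of 29 up (17.2%) and 3 down (10.3%), with a median of -0.03. The shares over all genes tested were 6.93% and 7.67%. Rgl1, an effector that activates Ral, was at 1.76 and 1.94 FPKM in EpH4 cells and 10.8 and 9.5 FPKM in EpRas cells (log2 difference 1.97, standard error 0.17, adjusted p = 0.00196). Rasa3, which turns off Ras by GTP hydrolysis, was at 20.1 and 19.7 FPKM in EpH4 cells and 62.3 and 60.9 FPKM in EpRas cells (log2 difference 1.58, standard error 0.16, adjusted p = 0.00337). Rin1, Rassf5 and Rasa1 rose by less, with ratios of 1.88, 1.84 and 1.69. Ptpn11, the phosphatase SHP2 that carries signals from receptors to Ras, fell from 78.8 and 70.6 FPKM to 41.7 and 37.9 FPKM (adjusted p = 0.0255), along with Rassf8 and Pik3cb. Only Rgl1 and Rasa3 kept their calls whichever library was left out. Rasa1 (adjusted p 0.0339 to 0.0553) and Pik3cb (adjusted p 0.0295 to 0.0572) lost their calls under at least 1 alternative in processing.

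Growth factor receptors and their ligands changed in both directions, with 6 of 32 up (18.8%) and 7 down (21.9%). The shares over all genes tested were 6.93% and 7.67%. Fgfr2, the FGF receptor of epithelial cells, was at 9.13 and 9.85 FPKM in EpH4 cells and 2.25 and 2.31 FPKM in EpRas cells (log2 difference -1.68, standard error 0.16, adjusted p = 0.00291), and Fgfr1 was at 35.5 and 38.4 FPKM in EpH4 cells and 73.9 and 71.2 FPKM in EpRas cells (log2 difference 0.96, standard error 0.16, adjusted p = 0.0188). Thus Fgfr1 was the more highly expressed of the 2 in either line on the FPKM scale, by more in EpRas cells. Pdgfrb, a PDGF receptor of mesenchymal cells, was at 0.915 and 0.988 FPKM in EpH4 cells and 7.14 and 8.11 FPKM in EpRas cells (log2 difference 2.14, standard error 0.16, adjusted p = 0.00139). In the EGF receptor family, Egfr was at 7.13 and 6.77 FPKM in EpH4 cells and 4.48 and 4.12 FPKM in EpRas cells (log2 difference -0.59, standard error 0.16, adjusted p = 0.0649) and Erbb2 at 24.9 and 36.8 FPKM in EpH4 cells and 22.7 and 19.7 FPKM in EpRas cells (log2 difference -0.50, standard error 0.23, adjusted p = 0.205), both lower in each EpRas library without passing the test. Among ligands of Egfr, Tgfa fell from 22.3 and 23 FPKM to 11.8 and 10.7 FPKM (adjusted p = 0.0194), whereas Hbegf rose, as given above. The ephrin receptors Epha1 and Ephb2 moved apart, Epha1 from 68.7 and 92.7 FPKM to 13.7 and 12.7 FPKM (adjusted p = 0.00169) and Ephb2 from 6.18 and 5.16 FPKM to 16.2 and 19.3 FPKM (adjusted p = 0.00703). IGF-binding proteins also moved apart. Igfbp4 (chromosome 11, 99040005 to 99052655) was at 0.0913 and 0.0673 FPKM in EpH4 cells and 289 and 249 FPKM in EpRas cells (log2 difference 7.96, standard error 0.17, adjusted p = 2.69e-05), and Igfbp3 at 7.98 and 8.01 FPKM in EpH4 cells and 0.499 and 0.872 FPKM in EpRas cells (log2 difference -2.43, standard error 0.18, adjusted p = 0.0013). Vegfc and Igfbp7 were lower in EpRas cells as well, and Met, the receptor of hepatocyte growth factor, was 1.94 times lower (adjusted p = 0.023). Fgfr2, Pdgfrb, Igfbp3, Igfbp4 and Epha1 were called whichever library was left out, and 5 to 6 of the 13 calls held with 1 left out.

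In the TGF-β and BMP pathway, 7 of 32 genes tested rose (21.9%) and 5 fell (15.6%) without any TGF-β added. The shares over all genes tested were 6.93% and 7.67%. Among ligands, Tgfb1 was at 8.82 and 11.7 FPKM in EpH4 cells and 22.2 and 19.9 FPKM in EpRas cells (adjusted p = 0.0295) and Bmp7 at 0.772 and 0.64 FPKM in EpH4 cells and 13.8 and 15.3 FPKM in EpRas cells (log2 difference 3.19, standard error 0.17, adjusted p = 0.000416). Tgfbr2, the receptor that binds TGF-β, was at 67.5 and 80.2 FPKM in EpH4 cells and 34.2 and 31.5 FPKM in EpRas cells (log2 difference -1.14, standard error 0.18, adjusted p = 0.014). Eng (endoglin), a co-receptor, fell from 45.2 and 59.1 FPKM to 14.8 and 10.4 FPKM (adjusted p = 0.00669). Thus the ligand was higher and the receptor and co-receptor were lower in both EpRas libraries. The secreted inhibitors moved in opposite directions. Grem1, which binds BMPs, was listed at 0 in both EpH4 libraries and at 11.1 and 7.32 FPKM in the EpRas libraries (adjusted p = 0.000835), and Fst (follistatin), which binds activin, was at 25.2 and 31.1 FPKM in EpH4 cells and 5.63 and 4.71 FPKM in EpRas cells (log2 difference -2.24, standard error 0.19, adjusted p = 0.00196). Ltbp1, which holds latent TGF-β in the matrix, and its relative Ltbp2 rose 1.92 and 1.97 times (adjusted p = 0.0205 and 0.0374). Smurf1, a ubiquitin ligase of SMAD proteins, and Id2, a target of BMP, fell 1.94 and 1.97 times (adjusted p = 0.0188 and 0.0477). Ltbp2 (adjusted p 0.0113 to 0.0551) and Id2 (adjusted p 0.0379 to 0.0701) lost their calls under at least 1 alternative in processing. Bmp7, Grem1 and Fst were called whichever library was left out, and without genes on chromosomes 2, 5, 6 and 13 4 of 23 rose and 2 fell.

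Wnt and Notch genes that changed were all lower in EpRas cells, 5 of 19 tested, and at an unadjusted p under 0.05 there were 7 lower and 2 higher, beside 15.9% and 16% of all genes tested. Sfrp1, a secreted inhibitor of Wnt, was at 10.7 and 8.76 FPKM in EpH4 cells and 0.67 and 0.721 FPKM in EpRas cells (log2 difference -2.66, standard error 0.17, adjusted p = 0.000796). Dll1, a ligand of Notch, was at 8.71 and 10.04 FPKM in EpH4 cells and 2.69 and 1.82 FPKM in EpRas cells (adjusted p = 0.00664), and Dlk2, a related surface protein, at 39 and 36.7 FPKM in EpH4 cells and 7.77 and 8.58 FPKM in EpRas cells (log2 difference -2.08, standard error 0.16, adjusted p = 0.00148). Lfng, which modifies Notch receptors, and Wnt10a fell 2.1 and 1.9 times. Notch1 was at 5.87 and 5.31 FPKM in EpH4 cells and 4.24 and 4.16 FPKM in EpRas cells and did not pass the test (log2 difference -0.34, standard error 0.16, adjusted p = 0.21). Axin2, a general target of Wnt signaling, was at 0.042 and 0 FPKM in EpH4 cells and 0 and 0 FPKM in EpRas cells, at or near 0 in both lines. Sfrp1 and Dlk2 kept their calls whichever library was left out.

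Secreted signals of inflammation were mostly lower in EpRas cells where they differed. Of 15 cytokines and chemokines tested, 7 fell (46.7%) and 1 rose (6.67%), beside 7.67% and 6.93% of all genes tested. The median was -0.73. Cxcl3, a chemokine that attracts neutrophils, was at 65.9 and 107 FPKM in EpH4 cells and 7.23 and 6.29 FPKM in EpRas cells (log2 difference -3.46, standard error 0.26, adjusted p = 0.00136). Cxcl5 was at 66.1 and 50.01 FPKM in EpH4 cells and 4.81 and 7.24 FPKM in EpRas cells (log2 difference -3.08, standard error 0.25, adjusted p = 0.00161), and Cxcl1, of the same kind, at 10.2 and 14.4 FPKM in EpH4 cells and 4.49 and 1.81 FPKM in EpRas cells (adjusted p = 0.0302). Cxcl16 and Ccl5, which attract T cells, fell 3.94 and 6.17 times. Csf1 and Csf3, growth factors of macrophages and granulocytes, fell 1.66 and 1.86 times (adjusted p = 0.0378 and 0.0406). Cx3cl1 (fractalkine) rose from 12.8 and 9.18 FPKM to 33.1 and 28.6 FPKM (adjusted p = 0.013). Cxcl1, Cxcl3 and Cxcl5 lie on chromosome 5, one of those described below, and without the genes of these chromosomes 4 of 10 fell. Cxcl3, Cxcl5 and Cxcl16 were called whichever library was left out. Cxcl1 (adjusted p 0.0267 to 0.0662), Ccl5 (adjusted p 0.0191 to 0.0562) and Csf3 (adjusted p 0.0299 to 0.054) lost their calls under at least 1 alternative in processing.

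Genes of the interferon response and of antigen presentation were also lower where they differed. Of 23 tested, 11 fell, with a median of -0.79, and 13 were lower and 2 higher at an unadjusted p under 0.05, beside 15.9% and 16% of all genes tested. Psmb8 (chromosome 17, 34198195 to 34201454) and Psmb9 encode subunits of the immunoproteasome, which cuts peptides for MHC class I. Psmb8 was at 47 and 59.4 FPKM in EpH4 cells and 1.37 and 0.882 FPKM in EpRas cells (log2 difference -4.67, standard error 0.21, adjusted p = 0.000249), and Psmb9 at 9.29 and 14.1 FPKM in EpH4 cells and 1.39 and 2.24 FPKM in EpRas cells (log2 difference -2.17, standard error 0.26, adjusted p = 0.00676). Tap2, which carries these peptides into the endoplasmic reticulum, was at 26.1 and 35.6 FPKM in EpH4 cells and 9.16 and 6.57 FPKM in EpRas cells (adjusted p = 0.00834), and Tapbp, which loads them, was 2.01 times lower (adjusted p = 0.0457). H2-K1, a heavy chain of MHC class I, was by contrast at 39.3 and 43.3 FPKM in EpH4 cells and 64.2 and 54.8 FPKM in EpRas cells, not called and higher in both EpRas libraries (log2 difference 0.52, standard error 0.17, adjusted p = 0.109). Bst2 (tetherin), induced by interferon, was at 421 and 284 FPKM in EpH4 cells and 97 and 104 FPKM in EpRas cells (log2 difference -1.77, standard error 0.23, adjusted p = 0.0087). Irf1, a transcription factor of the interferon response, fell 1.87 times (adjusted p = 0.0274). Cd74, the invariant chain of MHC class II, was at 5.18 and 5.41 FPKM in EpH4 cells and 0.821 and 0.882 FPKM in EpRas cells (log2 difference -1.77, standard error 0.16, adjusted p = 0.00232). Psmb8 and Cd74 were called whichever library was left out, and 3 to 5 of the 11 with 1 left out. Tapbp (adjusted p 0.0414 to 0.0744) lost its call under at least 1 alternative in processing.

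Among the metabolic lists, glycolysis held the most calls. Of 24 genes of glycolysis, lactate and the response to low oxygen, 11 rose, the median was 0.72, and 16 were higher and 1 lower at an unadjusted p under 0.05, beside 16% and 15.9% of all genes tested. Slc2a1, the glucose transporter GLUT1, was at 45.7 and 40.04 FPKM in EpH4 cells and 102 and 96.8 FPKM in EpRas cells (log2 difference 1.20, standard error 0.17, adjusted p = 0.0108). Aldoa, the main aldolase, was at 920.0 and 793 FPKM in EpH4 cells and 1722 and 1616 FPKM in EpRas cells (log2 difference 0.96, standard error 0.17, adjusted p = 0.0216). Gpi1, Pfkp and Pfkl, enzymes of the upper part of glycolysis, were 1.83, 1.83 and 1.63 times higher by the ratio of means (adjusted p = 0.023, 0.0302 and 0.045). Ldha, which makes lactate, was at 836 and 724 FPKM in EpH4 cells and 1118 and 1089.6 FPKM in EpRas cells, higher in both EpRas libraries without passing the test (log2 difference 0.50, standard error 0.17, adjusted p = 0.105). Pdk1, a kinase that keeps pyruvate from the mitochondria, was at 2.79 and 2.87 FPKM in EpH4 cells and 7.53 and 8.04 FPKM in EpRas cells (log2 difference 1.20, standard error 0.16, adjusted p = 0.00923). The larger ratios were those of Aldoc, Egln3 and Bnip3. Egln3, an oxygen sensor, rose from 0.963 and 1.01 FPKM to 5.42 and 4.49 FPKM (adjusted p = 0.00472), and Bnip3, a protein of mitochondrial turnover, from 6.02 and 4.77 FPKM to 14.2 and 20.2 FPKM (adjusted p = 0.0135). Aldoc, a second aldolase, went from 1.82 and 2.68 FPKM to 14.2 and 16.2 FPKM (adjusted p = 0.00209), and Car9, a carbonic anhydrase, from 27.5 and 23.1 FPKM to 45.8 and 47.9 FPKM (adjusted p = 0.0295). The sum over the list was 6096 and 6002 FPKM in EpH4 cells and 8651 and 7542 FPKM in EpRas cells, with both EpRas libraries above. Pfkl (adjusted p 0.0153 to 0.0556) lost its call under at least 1 alternative in processing. Aldoc and Egln3 were called whichever library was left out. The other 9 calls were each lost without at least 1 library, and 2 to 3 held with 1 left out.

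Genes of the TCA cycle and the respiratory chain gave 2 calls. Of 45 tested, Ndufs3, a subunit of complex I, rose from 43.3 and 44.4 FPKM to 87.8 and 73 FPKM (adjusted p = 0.0313) and Me1, malic enzyme, fell from 32.4 and 32.5 FPKM to 19.7 and 19.6 FPKM (adjusted p = 0.0401). The other 43 did not pass, 8 genes in all were higher and 4 lower at an unadjusted p under 0.05, a share below that of all genes tested (32%), and the median was 0.17. Cs, citrate synthase, was at 109.9 and 95.8 FPKM in EpH4 cells and 92.4 and 118 FPKM in EpRas cells (log2 difference 0.03, standard error 0.20, adjusted p = 0.943), with overlapping lines. Ndufs1, another subunit of complex I, was at 32.6 and 38.5 FPKM in EpH4 cells and 40.4 and 38.2 FPKM in EpRas cells (log2 difference 0.15, standard error 0.17, adjusted p = 0.602). Neither call held with 1 library left out, whichever it was.

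Lipid genes were counted in a fatty acid and a sterol list, and a difference between these lists was not tested. Of 29 fatty acid genes tested, 5 rose (17.2%) and 2 fell (6.9%), beside 6.93% and 7.67% of all genes tested. The median was 0.38, and 11 were higher and 3 lower at an unadjusted p under 0.05, beside 16% and 15.9% of all genes tested. Scd1 and Scd2, which introduce a double bond into fatty acids, were at 28.7 and 22.8 FPKM in EpH4 cells and 69.9 and 73.1 FPKM in EpRas cells for Scd1 (log2 difference 1.44, standard error 0.18, adjusted p = 0.00794) and at 155 and 168 FPKM in EpH4 cells and 305 and 293 FPKM in EpRas cells for Scd2 (adjusted p = 0.023). Plin2, the coat protein of lipid droplets, was at 129 and 131 FPKM in EpH4 cells and 302 and 334 FPKM in EpRas cells (log2 difference 1.28, standard error 0.16, adjusted p = 0.00787). Cpt1a, which admits fatty acids to mitochondria for oxidation, was at 9.72 and 13.6 FPKM in EpH4 cells and 34.1 and 29.6 FPKM in EpRas cells (log2 difference 1.39, standard error 0.21, adjusted p = 0.014), and Lpin1, a phosphatidate phosphatase, at 1.89 and 1.88 FPKM in EpH4 cells and 6.59 and 6.47 FPKM in EpRas cells (adjusted p = 0.00542). Fabp5, a fatty acid carrier, fell from 416 and 400.3 FPKM to 157 and 148 FPKM (adjusted p = 0.00538), and Dgat2, which completes triglycerides, from 5.9 and 6.43 FPKM to 2.18 and 1.25 FPKM (adjusted p = 0.0139). Fasn, fatty acid synthase, was at 81 and 92.7 FPKM in EpH4 cells and 125 and 102 FPKM in EpRas cells (log2 difference 0.38, standard error 0.19, adjusted p = 0.232). In sterol synthesis and uptake, Acat2 was the single call among 24 genes, from 23.3 and 19.8 FPKM to 41.1 and 41.4 FPKM (adjusted p = 0.0245). The median of the sterol list was 0.26, and 6 of its genes were higher and 0 lower at an unadjusted p under 0.05. With 1 library left out, 0 to 3 of the 7 fatty acid calls held, the fewest without EpRas replicate 2, and that of Acat2 in no case.

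Of 30 genes of the pentose phosphate, serine, one-carbon and nucleotide routes, 2 rose (6.67%) and 3 fell (10%). The shares over all genes tested were near, at 6.93% and 7.67%, and the median of the list was -0.10. The pair that rose encodes both dehydrogenases of the pentose phosphate pathway. G6pdx (chromosome X, 74409483 to 74428880), which starts the pathway, was at 24.5 and 19.1 FPKM in EpH4 cells and 97.3 and 93.1 FPKM in EpRas cells (log2 difference 2.09, standard error 0.19, adjusted p = 0.00233), and Pgd, the next dehydrogenase, at 94.2 and 119.7 FPKM in EpH4 cells and 231 and 199.8 FPKM in EpRas cells (log2 difference 1.01, standard error 0.20, adjusted p = 0.0276). Rpia, of its non-oxidative branch, went the other way, from 109.6 and 101 FPKM to 43.2 and 34.5 FPKM (adjusted p = 0.0087), as did Mthfd2, a mitochondrial enzyme of one-carbon metabolism (2.15 times lower, adjusted p = 0.017), and Ppat, the first enzyme of purine synthesis (1.87 times lower, adjusted p = 0.0478). These 3 lie on chromosomes 5 and 6. Phgdh, the first enzyme of serine synthesis, was at 289.8 and 321 FPKM in EpH4 cells and 369.8 and 225 FPKM in EpRas cells, with overlapping lines (log2 difference -0.08, standard error 0.27, adjusted p = 0.859). G6pdx kept its call whichever library was left out, and Pgd lost it without each one. Ppat (adjusted p 0.0251 to 0.0651) lost its call under at least 1 alternative in processing.

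Amino acid transport and stress genes gave 3 calls among 23 (13%), Trib3, Chac1 and Slc1a5, all higher, beside 6.93% of all genes tested. Their ratios were 2.03, 1.91 and 1.72, with adjusted p values of 0.022, 0.0442 and 0.0415. Atf4, the transcription factor upstream of the first 2, was at 512 and 489 FPKM in EpH4 cells and 599 and 454 FPKM in EpRas cells (log2 difference 0.06, standard error 0.20, adjusted p = 0.857), and Asns, its target that makes asparagine, at 118 and 107 FPKM in EpH4 cells and 103 and 100.4 FPKM in EpRas cells (log2 difference -0.14, standard error 0.16, adjusted p = 0.596). Chac1 (adjusted p 0.0191 to 0.0627) and Slc1a5 (adjusted p 0.034 to 0.0917) lost their calls under at least 1 alternative in processing. None of the 3 calls held in limma fits with 1 library left out, whichever it was. Of 26 antioxidant genes tested, 5 rose (19.2%) and 1 fell (3.85%), beside 6.93% and 7.67% of all genes tested. Nqo1, a quinone reductase and target of NRF2, was at 3.4 and 1.95 FPKM in EpH4 cells and 13 and 17.5 FPKM in EpRas cells (log2 difference 2.16, standard error 0.26, adjusted p = 0.00668). Gclc, which starts glutathione synthesis and is another such target, was at 13.7 and 13 FPKM in EpH4 cells and 15 and 17.4 FPKM in EpRas cells (log2 difference 0.26, standard error 0.17, adjusted p = 0.349). Sod3, the extracellular superoxide dismutase, was at 32.8 and 37.1 FPKM in EpH4 cells and 159 and 108 FPKM in EpRas cells (adjusted p = 0.00706), and the glutathione transferases Gsta4 and Gstm1 rose 3.12 and 2.86 times (adjusted p = 0.00346 and 0.0178). Srxn1, which restores oxidized peroxiredoxins and whose promoter is shown above, rose from 12.7 and 14.1 FPKM to 29.9 and 28.1 FPKM (adjusted p = 0.0143). Mgst1, a glutathione transferase of membranes, fell from 43.2 and 32.3 FPKM to 6.78 and 5.47 FPKM (adjusted p = 0.00217). Gsta4 and Mgst1 were called whichever library was left out.

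Of the genes of replication and mitosis tested, 2.70% were called higher and 8.11% lower, beside 6.93% and 7.67% of all genes tested. At an unadjusted p under 0.05, 3 of 37 were higher and 7 lower, beside 16% and 15.9% of all genes tested. Mki67, a marker of cycling cells, was at 21.8 and 24.6 FPKM in EpH4 cells and 21.2 and 22.7 FPKM in EpRas cells (log2 difference -0.07, standard error 0.17, adjusted p = 0.789). Of 37 genes tested, 3 fell, Rfc3, Mcm2 and Mcm7, which load or form the replicative helicase and clamp, and Pole, a polymerase, rose. Mcm2 was at 149 and 178 FPKM in EpH4 cells and 96 and 82.4 FPKM in EpRas cells (log2 difference -0.87, standard error 0.19, adjusted p = 0.0354), and Rfc3 at 85.8 and 83.7 FPKM in EpH4 cells and 36.4 and 45.7 FPKM in EpRas cells (log2 difference -1.04, standard error 0.18, adjusted p = 0.0214). All 4 lie on chromosomes 5 or 6, and with 1 library left out none of their limma calls held. Of 12 cyclins D and cell cycle inhibitors tested, 4 fell and 1 rose, and 2 and 1 of 9 without chromosomes 2, 5, 6 and 13. Cdkn1b (p27) was at 59.8 and 55.3 FPKM in EpH4 cells and 26.1 and 19.8 FPKM in EpRas cells (log2 difference -1.30, standard error 0.20, adjusted p = 0.0134), and Cdkn2c (p18) fell from 21.3 and 22.2 FPKM to 9.58 and 13.1 FPKM (adjusted p = 0.0397). Gadd45b, a stress-induced growth inhibitor, fell from 244 and 308 FPKM to 112 and 109 FPKM (adjusted p = 0.0112), and Cdkn2d (p19) rose from 15.3 and 14.6 FPKM to 24.8 and 37.1 FPKM (adjusted p = 0.0447). Cdkn2a, the p16 and ARF locus, was listed at 0 in all 4 libraries. Among D-type cyclins, Ccnd2 was at 9.57 and 7.78 FPKM in EpH4 cells and 0.452 and 0.54 FPKM in EpRas cells (log2 difference -2.69, standard error 0.18, adjusted p = 0.000796) and was called whichever library was left out, whereas Ccnd1, given above, was the most abundant of the cyclins D and overlapped between the lines. Pole (adjusted p 0.0242 to 0.0673), Mcm7 (adjusted p 0.0178 to 0.0579), Cdkn2c (adjusted p 0.028 to 0.0563) and Cdkn2d (adjusted p 0.0155 to 0.0702) lost their calls under at least 1 alternative in processing.

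**Figure D3:**
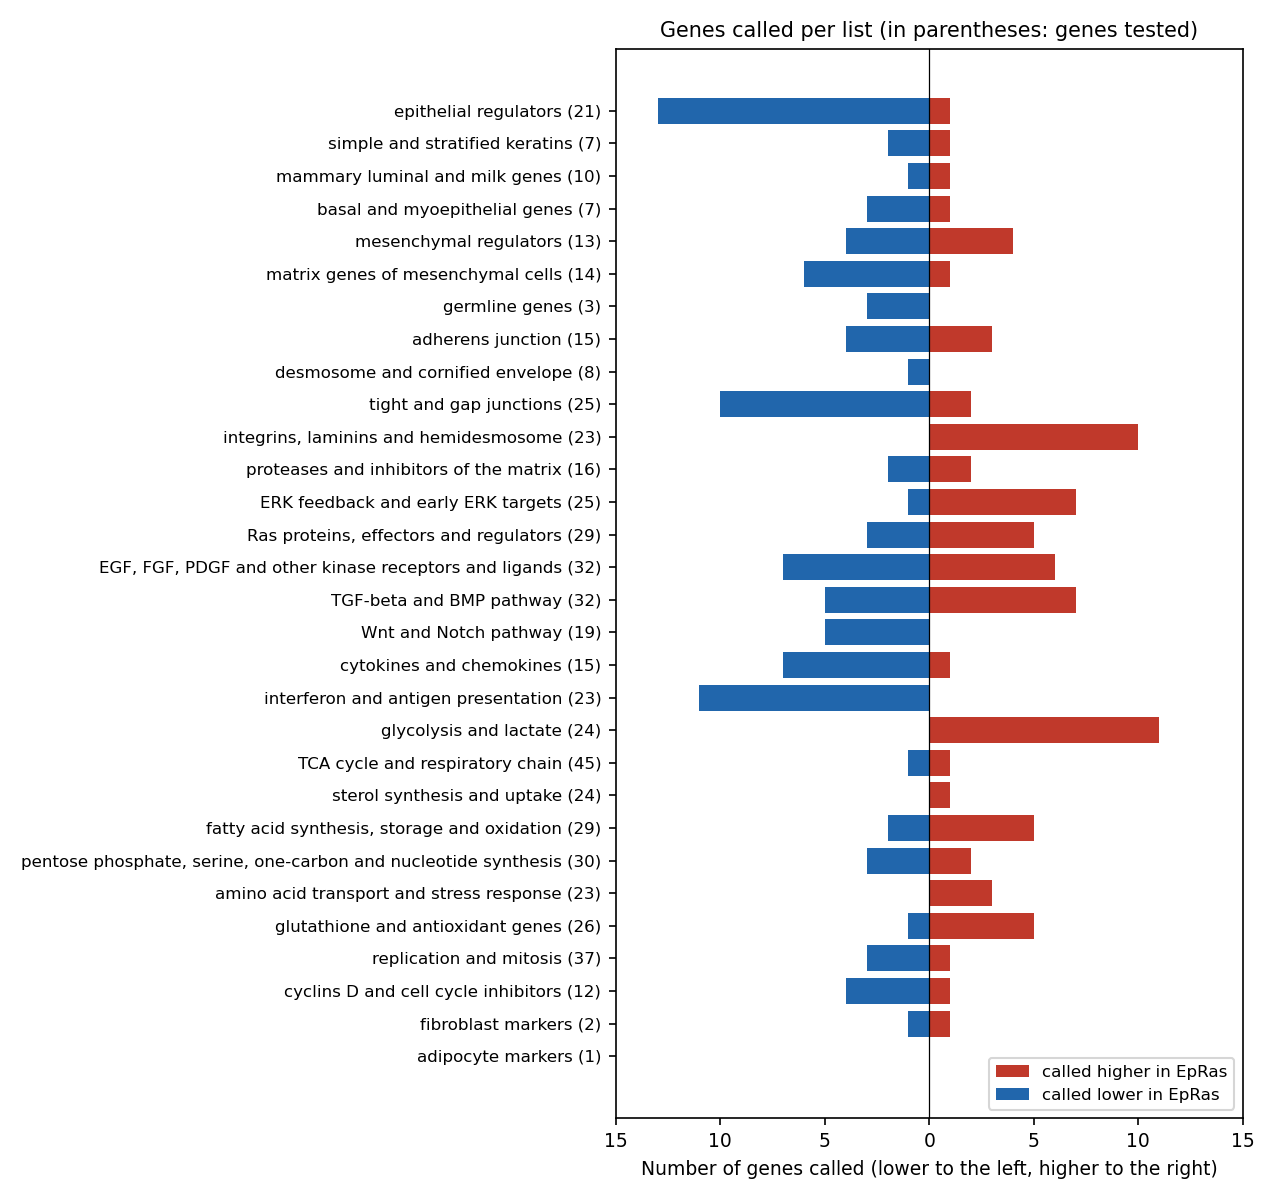
Number of genes called higher (red, to the right of 0) and lower (blue, to the left) in EpRas cells for each list with at least 1 gene tested, with the number tested in parentheses. The bars for epithelial regulators (13), interferon and antigen presentation (11) and tight and gap junctions (10) reach furthest to the left, and those for glycolysis (11) and integrins and laminins (10) furthest to the right.

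Markers of other cell types were looked at in the same libraries, together with the epithelial label. Krt8, Krt18, Epcam, Cdh1, Cldn3, Cldn4, Cldn7, Grhl2 and Esrp1 were expressed in all 4 libraries, at the levels given above where named. Krt19, of the same epithelial markers, was listed at 0 in both EpH4 libraries, as given above. The level of Krt7 is not reported here. Of 14 leukocyte markers, 8 were listed at 0 throughout, Ptprc (CD45) among them, and their summed level was 3.33 and 1.96 FPKM in EpH4 cells and 5.96 and 5.34 FPKM in EpRas cells. The largest of them was Cd68, at 1.9 and 1.4 FPKM in EpH4 cells and 3.81 and 4.84 FPKM in EpRas cells. Endothelial markers summed to 0.351 and 0.276 FPKM in EpH4 cells and 0.184 and 0.279 FPKM in EpRas cells, with Pecam1 listed at 0 in each library. Of 10 fibroblast markers, 4 were listed at 0 throughout (Lum, Thy1, Fap and Pdpn), and Dcn was at 0 and 0 FPKM in EpH4 cells and 0.175 and 0 FPKM in EpRas cells. Their sum was 22.7 and 26.8 FPKM in EpH4 cells and 12.3 and 13.6 FPKM in EpRas cells, with Pdgfrb higher and Col1a1 lower in EpRas cells, as given above, and Pdgfra at 0.668 and 0.986 FPKM in EpH4 cells and 2.33 and 3.16 FPKM in EpRas cells. The part of other cells in the levels of Vim and Cdh2 was not tested. The adipocyte markers Plin1 and Lep were listed at 0 in all 4 libraries, and Adipoq was at 0 and 0.122 FPKM in EpH4 cells and 0 and 0 FPKM in EpRas cells. Fabp4, which is also a fatty acid carrier of other cells, was the single adipocyte marker tested, at 8.13 and 5.71 FPKM in EpH4 cells and 2.54 and 0.342 FPKM in EpRas cells, below EpH4 cells without passing the test (log2 difference -1.84, standard error 0.46, adjusted p = 0.0529).

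The genes with the largest differences outside the lists were of diverse kinds. Among those that rose, Cenpb, which binds the DNA of centromeres, was listed at 0 in both EpH4 libraries and at 238 and 248 FPKM in the EpRas libraries. Rab12, a small GTPase of vesicle transport, and Cyba, a subunit of NADPH oxidase, were also listed at 0 in both EpH4 libraries and were at 28.4 and 29.2 FPKM and 28.1 and 24 FPKM in the EpRas libraries. Isyna1, which makes inositol, was at 0.728 and 0.921 FPKM in EpH4 cells and 126 and 103 FPKM in EpRas cells (log2 difference 5.98, standard error 0.18, adjusted p = 8.09e-05). Lmo1, a transcriptional cofactor, was at 1.37 and 1.01 FPKM in EpH4 cells and 103 and 66 FPKM in EpRas cells, and Adamts14, a protease that processes collagen, at 0 and 0.0252 FPKM in EpH4 cells and 30.9 and 24.3 FPKM in EpRas cells. Among those that fell, Hspb1, a small heat shock protein, was at 118 and 148 FPKM in EpH4 cells and 2.39 and 1.5 FPKM in EpRas cells (log2 difference -5.52, standard error 0.22, adjusted p = 0.000197). Gdf5, a ligand of the BMP family, was at 24 and 31.4 FPKM in EpH4 cells and 0.264 and 0.0711 FPKM in EpRas cells (log2 difference -4.61, standard error 0.20, adjusted p = 0.000244), and Zcwpw1, a reader of histone methylation in meiosis, at 47.7 and 59.2 FPKM in EpH4 cells and 0.416 and 0.224 FPKM in EpRas cells (log2 difference -5.36, standard error 0.19, adjusted p = 0.000117). Rangrf was at 29.3 and 12.5 FPKM in EpH4 cells and listed at 0 in both EpRas libraries, and AI118078 was at 22.1 and 30.5 FPKM in EpH4 cells and 0.634 and 0.204 FPKM in EpRas cells. An exact 0 can be a failed estimate in these tables, since Rpl26, a ribosomal protein gene that every cell uses, was listed at 0 in the first library of each line and at 11.3 FPKM and 13.5 FPKM in the second. All of these calls held whichever library was left out.

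Differences between the lines were also uneven over the chromosomes. On chromosome 2 more genes were higher than lower in EpRas cells, with 131 of 688 tested genes called higher and 39 lower and a median log2 difference of 0.26. The medians of the 4 differences between 1 EpRas and 1 EpH4 library were 0.25 to 0.27 there. Chromosome 5, with 120 of 584 genes lower and 19 higher, had a median of -0.42 (-0.44 to -0.37). Chromosome 6 was alike, with 80 of 394 lower, 15 higher and a median of -0.43 (-0.45 to -0.35). On chromosome 13, 44 of 319 were lower and 12 higher (median -0.27, -0.28 to -0.25). Chromosome 12 had the highest median of all, 0.33, with 32 of 276 genes higher. By comparison, the same medians between the 2 libraries of a line stayed between -0.13 and 0.09 on all 20 chromosomes with at least 50 genes tested. All 4 differences between single libraries of the lines lay outside that range on 9 chromosomes, which were 2, 4, 5, 6, 9, 12, 13, 15 and 16. Chromosome X, with 35 of 212 genes lower and 11 higher, had a median of -0.12 (-0.19 to -0.06). Within chromosome 2 the difference was not even. The 21 genes in its first 10 Mb had a median of -0.66 (8 called lower), the 35 genes between 130 and 140 Mb had a median of 0.86 (22 called higher) and the 62 genes between 160 and 170 Mb had one of -0.34 (7 called lower). On chromosome 13 the 30 genes between 100 and 110 Mb and the 22 between 110 and 120 Mb had medians of -0.71 and -0.88, with 12 called lower in each. Chromosomes 2, 5, 6 and 13 together held 1985 of the tested and 460 of the called genes. These 4 were chosen after their values were seen, and chromosomes 12 and X were not among them.

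**Figure D4:**
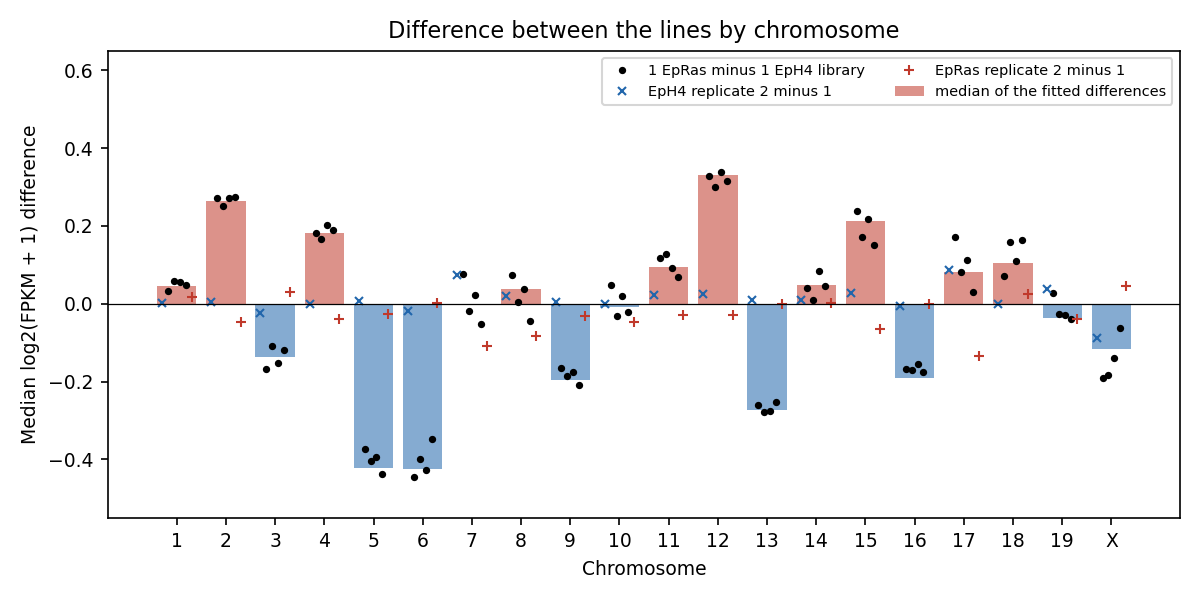
Median difference in log2(FPKM + 1) for the genes tested on each chromosome. Bars are the fitted EpRas minus EpH4 differences, dots are the 4 differences between single libraries of the 2 lines, and crosses and plus signs are the differences between the 2 libraries of EpH4 and of EpRas cells. The bars of chromosomes 5 (-0.42) and 6 (-0.43) are the lowest and those of 12 (0.33) and 2 (0.26) the highest, while the crosses and plus signs stay between -0.13 and 0.09.

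The lists with the most calls were also counted without the genes on chromosomes 2, 5, 6 and 13. Of all genes tested off these chromosomes 6.34% were called higher and 5.71% lower, and 15.8% and 11.8% were so at an unadjusted p under 0.05. Among epithelial regulators 11 of 16 fell and 1 rose, and among interferon and antigen presentation genes 11 of 22 fell. For glycolysis 9 of 18 rose, and for integrins and laminins 8 of 19. Among kinase receptors and ligands 5 of 24 rose and 3 fell, against 6 and 7 of 32 with these chromosomes. Replication and mitosis had no limma call left among 25 genes (0 higher and 4 lower at an unadjusted p under 0.05). In the list of pentose phosphate and nucleotide routes G6pdx and Pgd were left, in amino acid transport and stress 1 of the 3 calls, and in the TCA cycle and respiratory chain Me1.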

How the data were processed

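RNA of 2 untreated EpH4 and 2 untreated EpRas libraries was compared. The authors isolated polyadenylated RNA, made directional libraries for the Ion Proton, aligned reads to mm10 with TopHat2 2.0.11 and deposited FPKM per gene and library from Cuffdiff (Cufflinks 2.2.0, per the labels), together with interval bounds that were not used. Any scaling by Cuffdiff is part of the values. 3 of 23284 genes had no OK status and were left out, and 0 per-sample columns could not be mapped.

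Genes with at least 5 FPKM in 1 of the 4 libraries (8660) were tested with limma 3.58.1 in R 4.3.3 on log2(FPKM + 1), with 1 mean per line and Benjamini-Hochberg adjustment over all of them. Only these 4 libraries entered the main fit. The analysis was tested on simulated data. It called 24 of 66 genes with a true log2 difference of 1, 52 of 67 at 1.5 and 63 of 67 at 3. True differences of 1 were thus often missed. Relative depth came from the most frequent FPKM ratio to EpH4 replicate 1 among genes of low FPKM. These were 964 genes for EpH4 replicate 2, 608 for EpRas replicate 1 and 770 for EpRas replicate 2. Reads per gene came from the FPKM steps of 3332 of 11090 genes (30%), those with whole numbers of reads (tolerance 0.01 reads). The other genes did not give whole numbers of reads. Named genes were the 12 largest rises and falls among called genes (microRNA, small nucleolar RNA, Gm and Rik genes left aside), up to 5 called members of each list in each direction, and the defining members of each list. Other list members named in the text were chosen after their values were seen. The members and the lists were chosen with earlier results of these data known. Some tested genes are not reported here. Genes absent under their current symbol were found under an older one in the RefSeq table, which with GRCm38.p6 (the assembly of mm10) also gave positions, by symbol, for 8603 tested genes. Python 3.11.15 with pandas 2.3.3 was used for the other calculations.

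Alternatives were the number added before the logarithm, the filter, a replicate block, centering, a mean-variance trend, and each library left out. Another had all 8 untransfected libraries in the fit, those treated with TGF-β included. A crossed block and counts without 4 chromosomes were added after seeing the data.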

Additional observations from a re-analysis of the deposited data

How the results depend on the processing

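The counts of 600 higher and 664 lower genes stayed within 1.5 times with 0.1 or 5 FPKM added before the logarithm, without a filter, with all 8 untransfected libraries in the fit, after centering on the median and with a mean-variance trend (526 to 738 higher and 590 to 853 lower). With a mean of at least 10 FPKM required, which left 6091 genes to test, 288 were higher and 310 lower. With 1 library left out, 123 to 200 genes were higher and 131 to 219 lower, from fits in which 1 line is a single library assumed to vary like the other line. Of the 1264 calls, 648 were kept under every listed alternative that used both libraries of each line and tested the gene, and of 155 called genes chosen by the rule for named genes 115 were. The labels do not say whether libraries of the 2 lines with the same replicate number were handled together. The differences between replicates 1 and 2 of the lines correlated at -0.26 across genes, and a replicate block gave 368 higher and 403 lower genes, of which 744 were among the 1264 calls. A block with the numbers crossed gave 834 higher and 890 lower.

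Genes that were not called could change direction with 1 library left out. Over these fits the log2 difference went from -0.26 to 0.16 for Sparc, -0.20 to 0.013 for Lama3, -0.24 to 0.31 for Hras1, -0.15 to 0.20 for Cs, -0.44 to 0.28 for Phgdh, -0.14 to 0.26 for Atf4, -0.16 to 0.0094 for Mki67 and -0.45 to 0.032 for Ccnd1. No named gene reversed under the alternatives that kept all 4 libraries. The log2 difference of genes near 0 in 1 line follows the number added before the logarithm. Depth limits what can be said of genes below 5 FPKM, and the design, with 2 libraries for each line, limits all calls.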

Other observations

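Some genes were seen in 1 line and almost not in the other. Apart from genes of microRNAs and small nucleolar RNAs, 39 genes were under 1 FPKM in both EpH4 libraries and at 5 FPKM or more in both EpRas libraries, and 46 genes showed the reverse. These criteria fix the direction, so the counts are descriptions. Of the 39, 14 were listed at 0 in both EpH4 libraries, and of the 46, 8 were listed at 0 in both EpRas libraries. The following genes outside the lists were chosen after their values were seen. Pthlh, which encodes parathyroid hormone-related protein, was at 0.39 and 0.575 FPKM in EpH4 cells and 8.1 and 5.5 FPKM in EpRas cells. Evl, an actin regulator of the Ena/VASP family, was listed at 0 in both EpH4 libraries and at 14.3 and 11 FPKM in the EpRas libraries. Deptor, an inhibitor of mTOR, was at 0.303 and 0.818 FPKM in EpH4 cells and 9.46 and 5.99 FPKM in EpRas cells. In the other direction, Enpp2, which encodes autotaxin, was at 6.27 and 5.74 FPKM in EpH4 cells and 0.989 and 0.642 FPKM in EpRas cells. Tmprss2, an epithelial surface protease, was at 10.7 and 12.7 FPKM in EpH4 cells and 0.283 and 0.761 FPKM in EpRas cells.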
